A study of Mus musculus with 2 samples.

Results

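The cells described here were selected on the UMIs of 11 genes from the single-cell transcriptomes of the mouse embryo at E9.5. A cell was a member when it held at least 1 unique molecular identifier (UMI, a tag that marks 1 captured transcript) of Epcam, the epithelial cell adhesion molecule, at least 2 UMIs summed over Pax2, Pax8, Oc90 and Fbxo2, and no UMI of 6 foregut and pharyngeal endoderm genes (Foxa1, Foxa2, Nkx2-1, Nkx2-3, Foxe1 and Pax9). Of 21723 cells in all, 72 were members: 35 of 11958 in the WT library and 37 of 9765 in the KO library. They are called Epcam Pax2/8 cells below, because the label of otic and epibranchial placode cells was borne out in these members for its otic side only.

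The study compared embryos that lack Prdm6, a gene of the PR domain family of chromatin regulators, in the Wnt1 lineage with control littermates. Tissue was taken from the middle of the otic placode to the posterior edge of somite 4 of C57BL/6 embryos. The WT library came from embryos of the genotype Prdm6+/+; Wnt1-Cre2; ZsGreen1 and the KO library from embryos of the genotype Prdm6f/f; Wnt1-Cre2; ZsGreen1, so both carried the Cre transgene, whose Cre is driven by the Wnt1 promoter, and ZsGreen1, a green fluorescent reporter. The methods describe no sort. Cells of several embryos were barcoded and pooled, and which cell came from which embryo was not analysed here, which leaves 1 library per genotype and no replicate check of any difference between them. Placodal epithelium derives from surface ectoderm and largely lies outside the Wnt1 lineage, and whether these cells had lost the floxed allele was not tested.

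Otic and epibranchial placodes arise from a shared patch of thickened surface ectoderm beside the hindbrain, the posterior placodal area, which FGF signals from neighbouring tissue induce and in which the transcription factors Pax2 and Pax8 come on early. The otic placode invaginates into a cup and then a vesicle that gives rise to the inner ear and to the neurons of its ganglion, whereas the epibranchial placodes give sensory neurons to the geniculate, petrosal and nodose ganglia and use Neurog2 to do so. Oc90 encodes otoconin, the main matrix protein of otoconia, and Fbxo2 encodes a ubiquitin ligase subunit that is strong in the developing inner ear. Both are markers of the otic epithelium.

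Members were deeper than most cells. The median was 2665 UMIs per member in WT (range 1795 to 3905) and 2919 in KO (range 2023 to 3986), against 1597 and 1703 over all cells, and 100% of the members lay above the median of their own library. A rule that asks for 3 UMIs of few genes admits deep cells more readily than shallow ones, so depth and membership cannot be told apart. Applied after every cell had been thinned at random to 1000 UMIs, the rule kept 4 WT and 4 KO cells. The members summed to 98068 UMIs in WT and 110432 in KO, and this sets the counting error of every level below. Of the cell barcodes, 26 occurred in both libraries.

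The values that chose the members are given as a description. Epcam, which every member had to hold, had 57 UMIs in WT and 80 in KO members. Of the 4 genes summed by the rule, Pax2 supplied most UMIs, with 78 UMIs in 34 of 35 WT members and 64 UMIs in 31 of 37 KO members (the gene spans 44756045 to 44837871 on the plus strand of chromosome 19, GRCm38). Pax8 had 5 UMIs in 4 WT members and 20 UMIs in 14 KO members. Oc90 had 6 UMIs in 5 WT members and 2 in 2 KO members, and Fbxo2 had 3 UMIs in 3 and 2 UMIs in 2. A UMI of Oc90 or Fbxo2 was thus present in 7 WT members (20%, exact binomial 95% interval 8.44% to 36.9%) and 4 KO members (10.8%, interval 3.03% to 25.4%), and these intervals overlap over most of their width. All 6 KO members with Pax8 and no Pax2 had exactly 2 Pax8 UMIs, and 1 WT member had that combination, together with a UMI of Fbxo2.

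Most members sat at the edge of the rule. Just inside it, 23 WT and 26 KO members had exactly 2 UMIs over Pax2, Pax8, Oc90 and Fbxo2. The largest sum was 6, in 2 WT members. Just outside it, 61 WT and 54 KO cells with an Epcam UMI had 1 UMI over the same genes, 23 and 14 cells reached 2 such UMIs without an Epcam UMI, and 1 WT and 4 KO cells were removed for a UMI of an endoderm gene.

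As a share of each library, members made up 0.293% of WT cells (exact binomial 95% interval 0.204% to 0.407%) and 0.379% of KO cells (0.267% to 0.522%). The log2 ratio of the shares, KO over WT, was 0.37 with an exact conditional interval of −0.33 to 1.08, so a difference in share was not detectable at this number of cells. Among cells with an Epcam UMI, members were 3.56% of 983 in WT and 3.92% of 944 in KO, and the log2 ratio was 0.14 (−0.57 to 0.85). Every interval given here covers counting error only, and the variation from embryo to embryo or from library to library is not in it.

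Genes that the rule did not use were examined to check the label. A list of 28 otic genes held 563 UMIs in WT members and 548 in KO members, which is 5741 and 4962 CPM (UMIs of the list scaled to a total of 1000000 UMIs over the members). The comparison population was other Epcam cells, those with an Epcam UMI and no UMI of the other 10 genes of the rule (670 WT and 676 KO cells, median 1866 and 2237.5 UMIs). There the same list stood at 2296 and 1954 CPM. The log2 ratio of members over other Epcam cells was 1.32 (1.19 to 1.45) in WT and 1.34 (1.21 to 1.48) in KO. In the cells just outside the rule the list was also above that level, at 4433 CPM in WT and 3931 CPM in KO for cells with 1 UMI over the 4 genes of the rule, and at 5734 and 4071 CPM for those that lacked only Epcam. Epcam cells with at least 2 UMIs of the endoderm genes had 1551 and 1517 CPM.

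The otic genes were spread over nearly all members. The per-cell sum over the 28 genes ran from 4 to 35 UMIs with a median of 15 in WT, and from 1 to 29 with a median of 15 in KO. When Sox9, Sox2, Nr2f1 and Sall4, which many epithelia and neural cells express, were left out of the list, all 35 WT members and 34 of 37 KO members had UMIs of at least 2 of the other 24 genes, compared with 39.7% of other Epcam cells in WT and 40.4% in KO. Members were the deeper cells, and after thinning every cell to 1000 UMIs the shares were 54.3% (36.6% to 71.2%) of WT and 48.6% (31.9% to 65.6%) of KO members, against 23.4% (20.2% to 27.0%) and 18.2% (15.4% to 21.3%) of other Epcam cells. The KO member lowest in otic UMIs held 1 such UMI and 2 Pax8 UMIs. In the plot of UMIs by cell, the otic block is filled in both libraries and the neurogenic block is nearly empty.

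**Figure D1:**
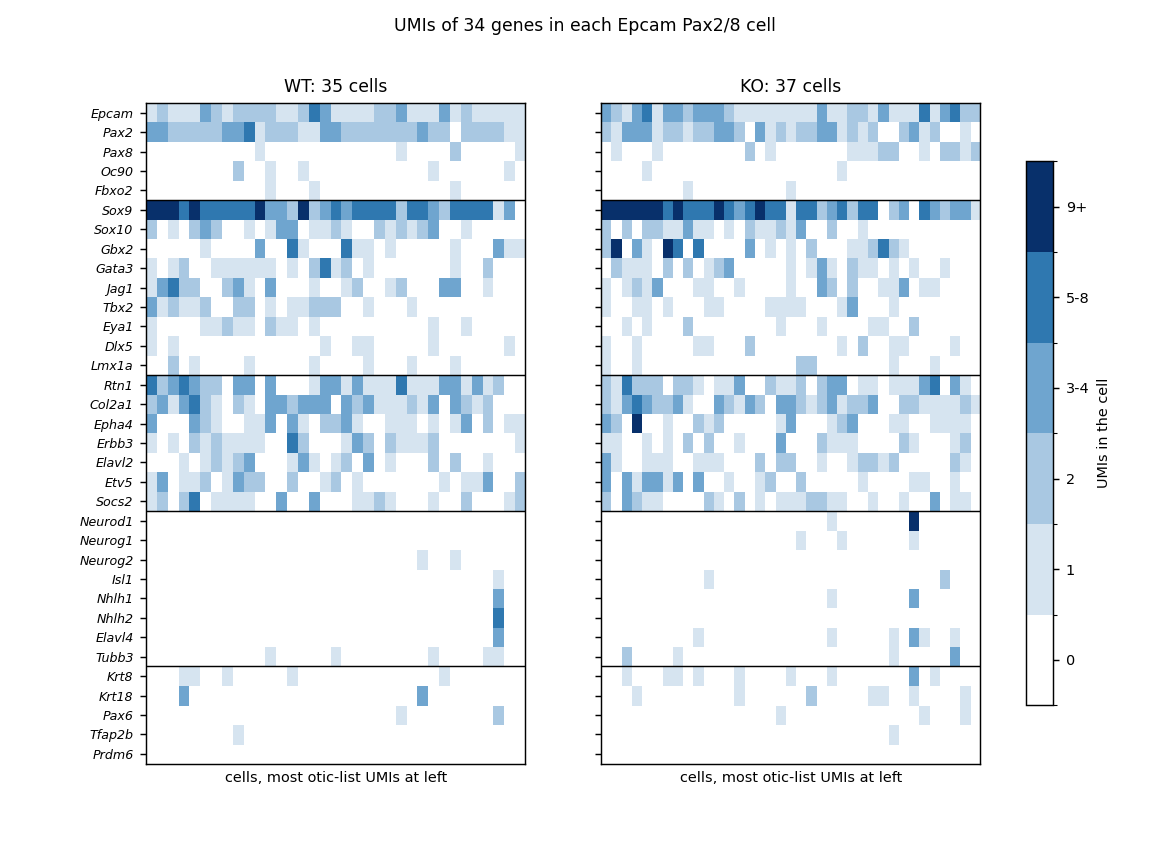
UMIs of 34 genes (rows) in each of the 35 WT and 37 KO Epcam Pax2/8 cells (columns, ordered by the UMIs of the otic list); lines separate the genes of the rule, otic genes, other genes raised in these cells, neurogenic genes and markers of other cells. Sox9 is present in 34 WT and 35 KO cells, most KO cells with Pax8 and no Pax2 lie toward the right, and each neurogenic gene is seen in few cells.

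Across 822 genes with at least 50 UMIs in the members of both libraries together, 12 were at least 2-fold higher in members than in other Epcam cells in each library (1.46%) and 1 was at least 2-fold lower in each (0.122%). The minimum was set on the members, so a gene low in them could hardly reach it and the split of 12 and 1 follows in part from it. With the minimum set instead on the level in other Epcam cells, 2 of 792 genes were higher and 8 lower. The median log2 ratio over the 822 genes was 0.07 in WT and 0.04 in KO. All 12 had counting intervals above 0 in both libraries, and all 12 were also at least 2-fold above the rest of the cells and above the Epcam cells with endoderm genes. Since there is no replicate, these are calls of size and not of a test. They were 5 of the 28 otic genes (Sox9, Sox10, Gbx2, Gata3 and Jag1), of which 8 had reached the minimum, the FGF-responsive factor Etv5, and Rtn1, Col2a1, Epha4, Erbb3, Elavl2 and Socs2. At the level of other Epcam cells, Sox10, Gbx2, Gata3 and Jag1 would not have reached the minimum. They passed it only through their level in members, so the 5 of 8 is no separate support for the label.

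Among transcription factors of the otic program, Sox9, an HMG-box factor needed for otic invagination, had 201 UMIs in WT members and 211 in KO members (2049.6 and 1911 CPM), with a lowest value of 0, a median of 5 and a highest of 15 UMIs per cell in each library. A Sox9 UMI was found in 34 WT and 35 KO members. Other Epcam cells had 514 CPM in WT and 349 CPM in KO, so the log2 ratio was 2.00 (1.76 to 2.23) in WT and 2.45 (2.21 to 2.68) in KO. Nearly every member thus held Sox9, and the ranges of the libraries coincided. The Sox9 gene lies at 112782224 to 112787760 on the plus strand of chromosome 11 (GRCm38).

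Sox10, a related factor of neural crest and of otic epithelium, had 37 UMIs in 20 WT members and 29 UMIs in 18 KO members. Its log2 ratio over other Epcam cells was 1.74 (1.18 to 2.27) and 1.55 (0.91 to 2.13). Gata3, a zinc finger factor of the otic placode whose loss disrupts inner ear growth, had 25 UMIs in 17 WT members and 28 UMIs in 19 KO members, with log2 ratios of 1.22 (0.55 to 1.84) and 1.52 (0.87 to 2.11). Gbx2, a homeobox factor of the hindbrain border and of the dorsal otocyst, had 25 UMIs in 12 WT members and 56 UMIs in 17 KO members. Its log2 ratio over other Epcam cells was 1.296 (0.62 to 1.92) in WT and 2.31 (1.84 to 2.76) in KO. With at least 3 UMIs asked of the rule genes, which left 12 WT and 11 KO cells, its ratio in WT turned to −1.87 (−7.18 to 0.63). These 3 factors were at 0 UMIs in 15 to 23 members of a library, and the highest cell had 5 UMIs in WT, for Gata3 and Gbx2, and 9 in KO, for Gbx2.

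Detection was compared at equal depth because members were deeper than the other populations. After thinning to 1000 UMIs per cell, Sox9 was detected in 74.3% and 73.0% of members in WT and KO, in 27.8% and 19.9% of other Epcam cells, and in 4.12% and 1.60% of erythroid cells, which should lack it (before thinning 97.1% and 94.6%, 39.0% and 35.2%, and 8.44% and 7.98%). Erythroid cells were those with at least 10% of UMIs on 7 erythroid genes (462 WT and 188 KO cells, median 2026.5 and 2478.5 UMIs). Thinning kept all members, 623 of 670 and 670 of 676 other Epcam cells, and 461 of 462 and 188 of 188 erythroid cells. For Gata3 the thinned shares were 17.1% and 24.3% of members, 9.63% and 6.27% of other Epcam cells, and 0% and 0.532% of erythroid cells. For Sox10 they were 31.4% and 18.9%, 9.15% and 6.12%, and 0.217% and 1.60%. The exact intervals of members and other Epcam cells did not overlap for Sox9 in either library (members 56.7% to 87.5% and 55.9% to 86.2%). Nor did they for Gbx2, Rtn1, Col2a1 and Epha4. They overlapped in WT for Gata3 (members 6.56% to 33.7%, other Epcam cells 7.43% to 12.2%) and Elavl2 (8.44% to 36.9% and 7.86% to 12.8%). In KO they overlapped for Sox10 (7.96% to 35.2% and 4.43% to 8.21%), Jag1 (4.54% to 28.8% and 5.85% to 10.1%), Erbb3 (6.19% to 32.0% and 3.17% to 6.503%) and Socs2 (7.96% to 35.2% and 6.38% to 10.7%), and for Etv5 in both libraries (10.4% to 40.1% and 6.72% to 11.3% in WT, 6.19% to 32.0% and 5.07% to 9.05% in KO). In each of these cases the share itself was higher in members, and for all of these genes but Etv5 the intervals were apart in the other library. An overlap of 2 intervals does not show that the shares were alike, and their difference was not tested.

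The 3 other otic genes that reached the minimum were not called. They were Nr2f1, with 60 UMIs in WT and 45 in KO members (0.64, 0.23 to 1.03, and 0.17, −0.31 to 0.61), Sall4, with 31 and 22 (0.70, 0.11 to 1.24, and 0.08, −0.61 to 0.71), and Sox2, with 22 and 28 (0.39, −0.32 to 1.02, and 0.65, 0.03 to 1.22). The other 20 genes of the list had fewer than 50 UMIs. Of these, Tbx2, a T-box repressor, had 25 UMIs in 16 WT members and 15 in 13 KO members, a log2 ratio over other Epcam cells of 2.66 (1.91 to 3.37) and 2.51 (1.54 to 3.42). At equal depth it was detected in 11.4% (3.20% to 26.7%) and 10.8% (3.03% to 25.4%) of members and in 4.17% (2.74% to 6.06%) and 2.24% (1.26% to 3.67%) of other Epcam cells, so the intervals overlapped in both libraries. Lmx1a, a LIM homeodomain factor of the inner ear, had 8 UMIs in 7 WT members and 8 in 6 KO members, with ratios of 1.74 (0.41 to 2.89) and 1.97 (0.62 to 3.14). Before thinning Lmx1a was detected in 20% and 16.2% of members and in 8.44% and 11.2% of erythroid cells. At equal depth 1 member of each library had it (2.86%, 0.07% to 14.9%, and 2.70%, 0.07% to 14.2%), compared with 4.77% and 4.26% of erythroid cells, and a difference was not detectable. These 2 were chosen after their values were seen. Eya1, a transcriptional cofactor that acts early in all placodes, had 14 UMIs in WT and 10 in KO, and its interval left out 0 in WT only (1.16, 0.22 to 1.98, and 0.51, −0.59 to 1.45). Hmx2 and Hmx3, homeobox factors of the dorsal otic vesicle, had 4 UMIs and 2 UMIs over both libraries, and Otx1, Otx2 and Ptgds had 0.

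Among the other raised genes, Rtn1, which encodes a reticulon of the endoplasmic reticulum, had 72 UMIs in 28 WT members and 60 UMIs in 28 KO members, and its log2 ratio over other Epcam cells was 2.47 (2.05 to 2.87) and 2.58 (2.12 to 3.03). Col2a1, the type II collagen chain that otic epithelium makes before cartilage forms, had 66 UMIs in 28 members and 71 UMIs in 32 members, with ratios of 1.20 (0.80 to 1.58) and 1.48 (1.09 to 1.85). The median member held 2 UMIs of Rtn1 in WT and 1 in KO, and 2 of Col2a1 in each, and for both genes the lowest cells were at 0 and the highest at 5 to 7. Jag1, a Notch ligand of the prosensory otic domain, had 39 UMIs in 17 WT members and 27 in 17 KO members, with ratios of 1.56 (1.02 to 2.06) and 1.28 (0.63 to 1.88). Epha4, an ephrin receptor, had 41 and 38 UMIs (1.61, 1.079 to 2.10, and 1.67, 1.12 to 2.19), and Erbb3, a neuregulin receptor, had 32 and 23 (1.76, 1.15 to 2.33, and 1.60, 0.88 to 2.26). Elavl2, an RNA-binding protein, and Socs2, a suppressor of cytokine signalling, lay between 1.304 and 1.73 on the log2 scale in both libraries. For Epha4, 10 of the 38 KO UMIs came from 1 cell.

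**Figure D2:**
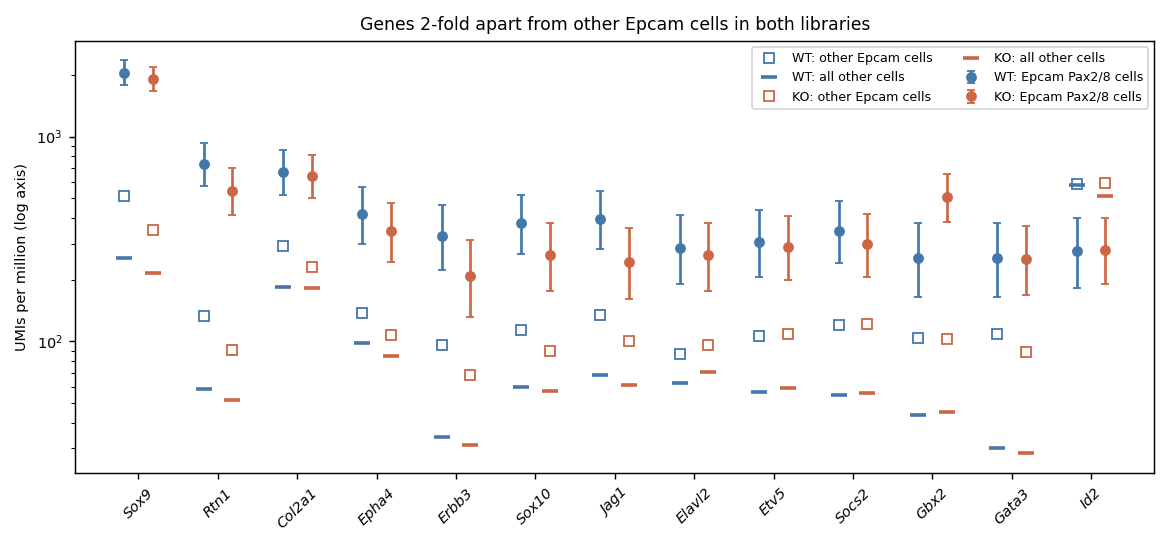
CPM (log axis) of the 12 genes at least 2-fold higher and of Id2, the gene at least 2-fold lower, in Epcam Pax2/8 cells (filled, with exact Poisson 95% intervals), other Epcam cells (open squares) and all other cells (bars), in WT (blue) and KO (orange). For each of the 12 genes the filled point lies above the square of its own library, and for Id2 it lies below.

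Start regions of 2 of the raised genes are printed, 1 of Rtn1, which had the largest log2 ratio of the 12 in both libraries, and 1 of Gbx2, which differed most between the libraries among the 12. RefSeq start regions (GRCm38.p6) were at hand for 7 of the 12 genes, with 15 start sites. In the 250 bases upstream of each site, 3 motifs were searched on both strands. The motif of SOX factors, ACAAAG, was present in 2 of the 15 regions and in 16.5% of 32851 regions of all genes. The motif of ETS factors, CCGGAAG, was present in 0 of 15, compared with 6.91%. The motif of GATA factors, AGATAA, was present in 0 of 15, compared with 9.99%. No motif contains another. Some of the 15 regions overlap, among them regions of Elavl2. The printed Rtn1 region, whose match is in capitals, belongs to a start site inside the gene. The other Rtn1 regions, among them the one at the outer start of the gene, had none of the 3 motifs. Gbx2 (minus strand) had none of the 3 in this window, which says only that these letters do not occur there.
Rtn1, chr12:72235747-72235996, minus strand: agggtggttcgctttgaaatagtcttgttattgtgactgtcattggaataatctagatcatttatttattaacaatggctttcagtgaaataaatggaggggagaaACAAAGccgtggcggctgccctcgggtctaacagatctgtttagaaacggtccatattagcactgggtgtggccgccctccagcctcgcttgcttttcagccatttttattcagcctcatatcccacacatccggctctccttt
Gbx2, chr1:89931177-89931426, minus strand: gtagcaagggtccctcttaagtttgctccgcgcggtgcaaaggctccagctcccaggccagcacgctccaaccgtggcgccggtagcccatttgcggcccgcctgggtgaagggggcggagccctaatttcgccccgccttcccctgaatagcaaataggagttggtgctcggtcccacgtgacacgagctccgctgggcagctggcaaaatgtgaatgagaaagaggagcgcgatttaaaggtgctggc

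Id2, an inhibitor of basic helix-loop-helix factors that responds to BMP signals, was the gene at least 2-fold lower in each library. It had 27 UMIs in 22 WT members and 31 UMIs in 19 KO members (275 and 281 CPM), against 588 and 592 CPM in other Epcam cells, a log2 ratio of −1.09 (−1.71 to −0.54) and −1.08 (−1.64 to −0.56). The 22 BMP pathway genes summed to 918 CPM in WT members and 1268 CPM in KO members, against 1587 and 1595 in other Epcam cells, and only Id2 among them reached the UMI minimum.

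The FGF, Notch and Wnt lists stood higher in members than in other Epcam cells by less than 2-fold, in part through single cells. For the 22 FGF pathway genes the log2 ratio was 0.51 (0.31 to 0.71) in WT and 0.48 (0.26 to 0.68) in KO, and 0.31 (0.07 to 0.55) in KO without the members with Pax8 and no Pax2. Of the 2 that reached the minimum, Etv5 was called, with 30 UMIs in 18 WT members and 32 in 16 KO members (1.53, 0.91 to 2.11, and 1.41, 0.81 to 1.96), and Spry2, a feedback inhibitor of FGF signals, was not, with 102 UMIs in 28 WT members and 91 in 27 KO members (0.22, −0.09 to 0.51, and 0.40, 0.07 to 0.71). The 19 Notch pathway genes gave 0.35 (0.12 to 0.57) and 0.41 (0.18 to 0.63), with Jag1 called of 3 that reached the minimum, and the receptor Notch2 at 0.03 and 0.15. A single KO cell held 23 of the list's UMIs, 18 of them of Notch2, and without it the KO ratio was 0.26 (0.02 to 0.50). The 27 Wnt pathway genes gave 0.30 (0.08 to 0.51) and 0.38 (0.18 to 0.57), with 0 of 2 called. A single WT cell held 21 of the 201 WT UMIs, 20 of them of Sfrp2, and without it the WT ratio was 0.18 (−0.05 to 0.40), which spans 0. The receptor Fzd7 had 27 UMIs in WT and 29 in KO members (0.98, 0.34 to 1.57, and 1.35, 0.72 to 1.93). Hox genes, which pattern the trunk and the hindbrain from rhombomeres backward, were low: 21 genes summed to 23 UMIs in WT and 15 in KO members, a log2 ratio of −0.94 (−1.61 to −0.34) and −1.43 (−2.27 to −0.69).

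The epibranchial side of the label was not borne out in the members. The 19 neurogenic genes of the epibranchial and other placodes summed to 38 UMIs in WT members (387 CPM) and 68 in KO members (616 CPM), compared with 601 and 666 CPM in other Epcam cells, and none of them reached 50 UMIs. Just outside the rule, the list was higher in cells that lacked only Epcam, at 1038 CPM in WT and 1011 CPM in KO. Cells with 1 UMI over the 4 genes of the rule had 728 and 543 CPM. Whether asking for Epcam kept neurogenic placode cells out of the members was not tested. Phox2a, a homeobox factor of epibranchial neurons, had 0 UMIs in either library. Neurog2, the proneural factor of epibranchial placodes, had 2 and 0. Foxi2, which marks epibranchial and other ectoderm once the otic placode has formed, had 2 and 3 UMIs, and its log2 ratio over other Epcam cells was −1.92 (−4.98 to −0.03) and −1.81 (−4.10 to −0.23).

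Among WT members 18 of 35 had a neurogenic UMI, among KO members 24 of 37, and a few cells held many. Six4, a homeobox factor of placodes and the gene of the list with most UMIs, had 8 UMIs in 7 WT members and 15 in 12 KO members. More than 5 neurogenic UMIs were found in 1 WT and 3 KO members. In the remaining members lay 22 of 38 such UMIs in WT (232 CPM) and 35 of 68 in KO (346 CPM). The WT cell held 16 neurogenic UMIs, 5 of them of Nhlh2 and 3 each of Nhlh1 and Elavl4, genes of newly formed neurons, together with 6 UMIs of the otic list and 69 UMIs of Crabp1, a retinoic acid binding protein. A KO cell held 18, of which 9 were of Neurod1 and 4 of Nhlh1, beside 3 Pax2 UMIs. The other 2 KO cells, with 9 and 6 neurogenic UMIs, both had Pax8 and no Pax2. One of them held 3 UMIs of Neurod4 and 3 of Tubb3, and the other 2 of Isl1 and 2 of Foxi2. In the plot of otic against neurogenic UMIs these 4 cells stand apart to the right, all with 9 otic UMIs or fewer.

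**Figure D3:**
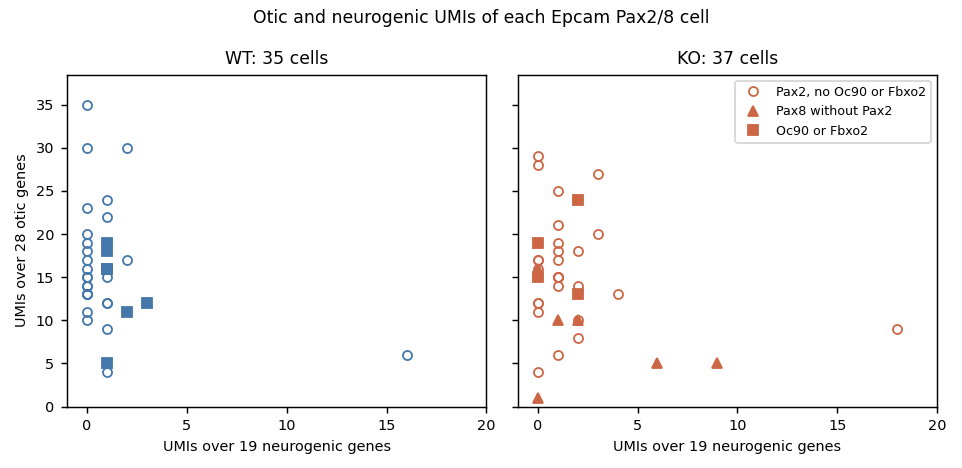
UMIs over 28 otic genes against UMIs over 19 neurogenic genes in each Epcam Pax2/8 cell of WT (left) and KO (right), marked by which genes of the rule the cell held; cells with the same values overlap. Most cells have 0 to 4 neurogenic UMIs, and the 4 cells with 6 to 18 have 5 to 9 otic UMIs.

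The level of the otic list is given by Pax2 and Pax8 as a description, since the rule used both genes. Members with Pax2 and no Pax8 had 5913 CPM of the otic list in 31 WT cells (exact Poisson 95% interval 5414 to 6445) and 5460.0 CPM in 23 KO cells (4932 to 6030). Members with both had 4305 CPM in 3 WT cells (2999 to 5987) and 4898 CPM in 8 KO cells (4029 to 5898). The 6 KO members with Pax8 and no Pax2 had 2877 CPM (2114 to 3825), with 1 to 16 otic UMIs per cell. The 1 WT member of that kind had 4405 CPM (2199 to 7882). The 11 members with Oc90 or Fbxo2, 7 in WT and 4 in KO, are too few to be compared firmly with the other 61. Of 1480 genes with at least 30 UMIs, 9 were at least 2-fold higher and 44 at least 2-fold lower in both libraries, and the intervals left out 0 in both libraries for 0 of these. The interval left out 0 for 45 genes in WT and 44 in KO, and the direction was the same in 762 genes and opposite in 718. The 9 included Akap8, Tcea1 and Mrps6, with 3 to 6 UMIs each in these members of a library.

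Markers of neighbouring tissues were low or mixed. Surface ectoderm genes summed to 21 UMIs in WT and 36 in KO members, log2 ratios over other Epcam cells of −1.50 (−2.20 to −0.88) and −0.68 (−1.21 to −0.20), with the keratin genes Krt8 at 5 and 11 UMIs, Krt18 at 6 and 8, and Trp63, Krt5 and Krt14 at 0. Of 26 epithelial junction genes, the tight junction genes Cldn6 (22 and 22 UMIs) and Cldn7 (16 and 12) and the protease inhibitor Spint2 (15 and 12) were among those with most UMIs, and the list differed little from other Epcam cells (0.20, −0.05 to 0.44, and 0.15, −0.11 to 0.40). Nephric duct also expresses Pax2, Pax8 and Gata3, and the 7 nephric markers summed to 2 UMIs in WT and 5 in KO members, log2 ratios over other Epcam cells of −1.72 (−4.79 to 0.18) and −0.05 (−1.72 to 1.24). Osr1 had 1 and 3 UMIs, Lhx1 had 1 and 1, Ret had 0 and 1, and Wt1, Emx2 and Wnt11 had 0, which is too few to place the members against other Epcam cells. The 10 endoderm genes outside the rule summed to 4 and 7 UMIs, and 12 neural tube genes to 21 and 23 UMIs (214 and 208 CPM, against 477 and 468 in the rest of the cells). Over other Epcam cells the log2 ratio of the neural tube genes was −0.56 (−1.27 to 0.07) in WT, which spans 0, and −0.67 (−1.34 to −0.07) in KO.

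Neural crest markers were not low as a list. The 7 genes summed to 67 UMIs in WT and 56 in KO members, 683 and 507 CPM, against 314 and 292 CPM in other Epcam cells. Most of these UMIs were of Erbb3 (32 and 23) and Sox5 (10 and 12), while the defining crest genes were close to 0, with 1 and 0 UMIs of Foxd3 and 1 and 1 of Tfap2b. Without Erbb3 the list stood at 357 and 299 CPM, against 218 and 224. UMIs of transcripts that fill blood and heart cells occurred in most members: erythroid genes had 270 UMIs in 35 of 35 WT members and 148 UMIs in 36 of 37 KO members (2753 and 1340 CPM, against 14158 and 7321 in the rest of the cells), and cardiac genes had 61 and 83. Endothelial genes had 16 UMIs in 8 WT members and 5 in 5 KO members, with 1 WT member at 7, and macrophage genes had 0 and 1.

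Prdm6, the targeted gene, had 0 UMIs in members of either library. At 35 and 37 cells the limit of 3 counts in the total allows a share of cells with a UMI of up to 8.57% in WT and 8.11% in KO, so its state in these cells could not be read. A Prdm6 UMI was present in 0.746% of other Epcam cells in WT and 0.296% in KO, and in 0.433% of WT erythroid cells (median 1866, 2237.5 and 2026.5 UMIs). In all other cells Prdm6 had 104 UMIs in WT and 59 in KO (−0.68, −1.17 to −0.21), and whether these UMIs lie in the deleted part of the gene cannot be read from gene counts. The H4K20 methyltransferase gene Kmt5a had 30 UMIs in WT and 33 in KO members, a log2 ratio KO over WT of −0.03 (−0.79 to 0.73).

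To ask how the genotype moved with expression in these cells, 824 genes with at least 50 UMIs were compared between the libraries. A gene was called when it was past 2-fold with an exact conditional 95% interval that left out 0. By this rule 7 genes were higher in KO (0.85%) and 7 were lower (0.85%), and the median log2 ratio was 0.01, with the 5th and 95th percentiles at −0.67 and 0.68. The interval alone left out 0 for 60 genes higher and 53 lower in KO. Counting error alone takes some of 824 genes past this rule, so neither the number of calls nor a single call in it shows a difference between the genotypes, and the values below describe these libraries. Of the 28 otic genes, 8 reached the minimum and 0 of these were called in either direction. All 7 higher genes and 5 of the 7 lower ones differed in the same direction in all other cells, with intervals that left out 0. Those cells held 20683316 UMIs in WT and 18826425 in KO, so an interval there can leave out 0 at a small ratio. How many of the 824 genes had such an interval there was not counted, and the 7 and 5 lend the calls no weight.

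Xist, the RNA of the inactive X chromosome in female cells, had 10 UMIs in 6 of 35 WT members and 67 UMIs in 19 of 37 KO members, a log2 ratio of 2.57 (1.61 to 3.70), compared with 1.06 in all other cells. The highest member had 4 UMIs in WT and 8 in KO, and 29 WT and 18 KO members had 0, so the ranges overlapped. Xist was thus detected in 17.1% and 51.4% of members, and in 19.1% and 37.7% of all cells. Of 4 Y-linked genes, 5 UMIs were found in 5 WT members and 5 UMIs in 4 KO members, and over all cells 16.5% of WT and 8.71% of KO cells had one. The sexes of the pooled embryos and the genotype cannot be told apart in these libraries.

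Of the other 6 genes higher in KO, Psmd2, a proteasome subunit, had 12 UMIs in 9 WT members and 38 in 22 KO members (log2 ratio 1.49, 0.52 to 2.56). Ipo7, a nuclear import receptor, had 25 UMIs in 20 and 64 in 32 (1.18, 0.50 to 1.91). The nucleolar protein genes Rsl1d1 (17 and 41 UMIs, 1.10, 0.25 to 2.01) and Knop1 (18 and 43, 1.09, 0.26 to 1.97) and the small membrane protein gene Tmem256 (18 and 46, 1.18, 0.37 to 2.06) rested on 1 to 5 UMIs per positive cell, and Rsl1d1 turned to −0.082 (−2.35 to 1.99) in Oc90 or Fbxo2 members alone. In all other cells the log2 ratios of these 5 genes ran from 0.06 to 0.42. Gm42418, which overlaps a ribosomal RNA repeat and tracks leftover ribosomal RNA, had 67 and 153 UMIs (1.02, 0.60 to 1.46), and its ratio was 1.20 in all other cells.

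Among the genes lower in KO, Sfrp2, a secreted Wnt modulator, had 41 UMIs in 15 WT members and 16 in 12 KO members (−1.53, −2.46 to −0.66), and Cdkn1c, an imprinted cell cycle inhibitor, had 102 UMIs in 28 and 52 in 27 (−1.14, −1.65 to −0.65). In both, a single WT cell held a large part of the total. One member held 20 of the 41 Sfrp2 UMIs, and another held 43 of the 102 Cdkn1c UMIs. Without the highest cell of each library the log2 ratio was −0.98 (−2.14 to 0.11) for Sfrp2 and −0.53 (−1.12 to 0.05) for Cdkn1c, so neither stayed past the call. With at least 3 UMIs asked of the rule genes the ratios turned to 0.046 (−1.86 to 1.95) and 0.52 (−0.41 to 1.48). Crabp1, not called, followed the same course, with 69 of its 156 WT UMIs in the WT cell with 16 neurogenic UMIs and 111 in KO (−0.66, −1.03 to −0.30, and 0.06, −0.37 to 0.49, without the highest cells).

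The embryonic globin genes Hbb-y (125 and 64 UMIs, −1.14, −1.60 to −0.69) and Hba-x (93 and 51, −1.04, −1.56 to −0.53) were lower in KO, and were lower in all other cells too (−0.93 and −1.16). Their UMIs in epithelial cells went with the erythroid list in the rest of each library, and the part of free RNA in this was not tested. Ube2e3, a ubiquitin-conjugating enzyme, had 40 and 20 UMIs (−1.17, −2.02 to −0.36) and was −0.27 in all other cells. Csnk1a1, casein kinase 1 alpha, had 54 and 29 (−1.07, −1.77 to −0.39), and its direction turned after thinning to 1000 UMIs (0.13, −1.05 to 1.32) and in Oc90 or Fbxo2 members alone (0.088, −1.72 to 1.80). The mitochondrial ribosomal gene Mrpl54 had 40 and 21 (−1.10, −1.94 to −0.30), and −0.21 (−1.46 to 1.05) without the deepest 10% of cells. These last 2 were the lower genes that did not go the same way in all other cells, where they were at 0.10 and 0.06.

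**Figure D4:**
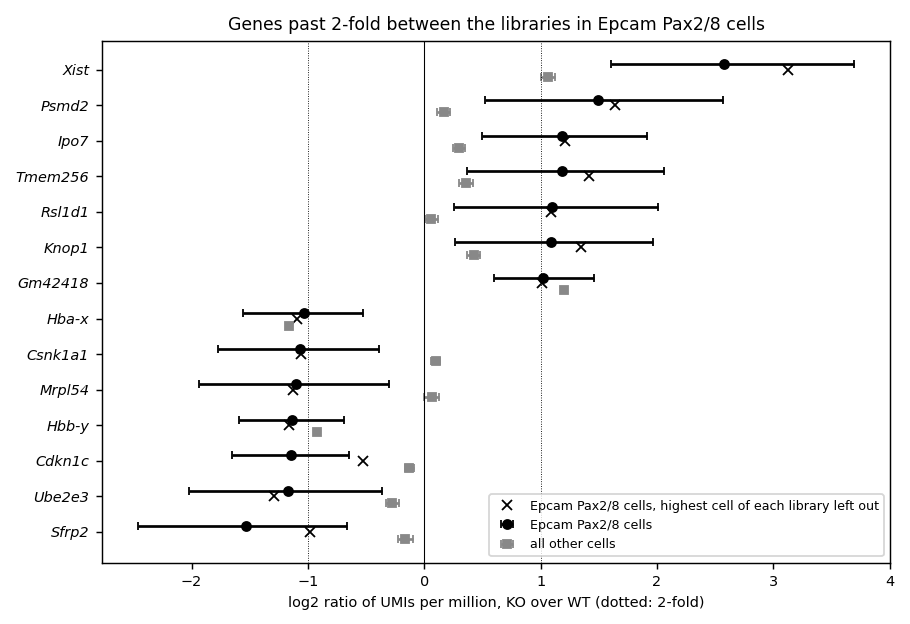
Log2 ratio of CPM, KO over WT, with exact conditional 95% intervals, for the 14 genes past 2-fold in Epcam Pax2/8 cells (black circles), the same after leaving out the highest cell of each library (crosses), and in all other cells (grey squares). Xist, Gm42418, Hba-x and Hbb-y lie near or past 2-fold in all other cells as well, and leaving out the highest cells brings Sfrp2 and Cdkn1c inside 2-fold.

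Within the otic list, differences between the libraries were small. Its sum was lower in KO by a log2 ratio of −0.21 (−0.38 to −0.04), and the ratio was −0.09 in all other cells. Without the members with Pax8 and no Pax2, 1 in WT and 6 in KO, it was −0.12 (−0.29 to 0.06), which spans 0. Gbx2 came nearest to a call, with 25 UMIs in WT and 56 in KO members (0.99, 0.29 to 1.73). Its highest member had 5 UMIs in WT and 9 in KO, 23 WT and 20 KO members had 0, and the ratio without the highest cells was 1.06 (0.28 to 1.89), while it was 0.04 in all other cells. For Sox9 the ratio was −0.10 (−0.39 to 0.18), for Sox10 −0.52 (−1.28 to 0.22), for Gata3 −0.01 (−0.84 to 0.83) and for Jag1 −0.70 (−1.47 to 0.04). Tbx1, a T-box gene of the otocyst and pharynx, had 8 UMIs in 6 WT members and 1 in KO (−3.17, −8.64 to −0.27), and Hoxa3 had 8 in 7 WT members and 0 in KO, both too few to place.

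The intervals of both cell cycle lists spanned 0. The 27 S phase genes summed to 4385 CPM in WT and 4627 CPM in KO members, a log2 ratio of 0.08 (−0.11 to 0.27), with 0 of the 8 genes past the minimum called. The 34 genes of G2 and M phase summed to 8076 and 8340.0 CPM (0.05, −0.09 to 0.19), with 0 of 12 called. Within that list Hmgb2, a chromatin protein of dividing cells, had 75 and 142 UMIs (0.75, 0.34 to 1.17), while Ube2c had 55 and 36 (−0.78, −1.43 to −0.15). The pathway lists gave −0.29 (−0.57 to −0.01) for FGF, −0.17 (−0.48 to 0.14) for Notch, 0.04 (−0.24 to 0.32) for Wnt and 0.47 (0.07 to 0.86) for BMP. Without the members with Pax8 and no Pax2 the ratio was −0.48 (−0.79 to −0.18) for FGF and 0.28 (−0.14 to 0.71) for BMP. Without the highest cell of each library it was −0.26 (−0.56 to 0.03) for FGF, −0.26 (−0.58 to 0.07) for Notch, 0.13 (−0.16 to 0.42) for Wnt and 0.48 (0.07 to 0.89) for BMP. Sfrp2 alone was called among the genes of these 4 lists.

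Over the 26 lists with UMIs in both libraries, the interval of the ratio KO over WT left out 0 for 3 lists higher and 5 lower in KO. Beside BMP the higher ones were the neurogenic list, at 0.67 (0.07 to 1.28) with −0.15 in all other cells, and the mesenchyme markers, at 0.77 (0.03 to 1.54) with −0.16 in all other cells. Without the highest cell of each library these stood at 1.01 (0.26 to 1.81) and 0.79 (−0.01 to 1.62), and without the members with Pax8 and no Pax2 at 0.50 (−0.15 to 1.16) and 0.72 (−0.05 to 1.52). In that last setting 0 lists were higher and 4 lower with an interval that left out 0. The lower ones beside the otic and FGF lists were the endothelial markers (−1.85, −3.65 to −0.34, and −1.36, −3.51 to 0.48, without the highest cells), the erythroid markers (−1.04, −1.34 to −0.74) and the genes of hypoxia and glycolysis. These intervals cover counting error within 1 library per genotype.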

How the data were processed

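Single-cell RNA libraries of 1 WT and 1 KO pool of embryos were analysed. The authors sequenced 10x droplets, and per the labels and submitters' notes used Cell Ranger 1.3.1, mm10 and Scanpy. The authors kept cells with 200 to 6000 UMIs and genes in at least 3 cells, and the deposited signal of a gene in a cell is the square root of its UMIs scaled to a fixed total. Squaring and dividing by the smallest nonzero value of a cell gave whole UMIs within 0.01 for 100% of nonzero values. No mitochondrial or ribosomal protein gene was in the tables. The study removed doublets with DoubletFinder, and no further caller was run.

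UMIs were summed over the members of each library (Python 3.11.15, numpy 2.4.6, scipy 1.17.1, pandas 2.3.3, matplotlib 3.10.9). With 1 library per genotype no test was possible. Intervals at 95% are exact Poisson, conditional binomial or Clopper-Pearson. Between libraries a call needed 50 UMIs, 2-fold and an interval that left out 0. Against other Epcam cells it needed 50 UMIs and 2-fold in both libraries. The steps were tested on simulated data. Named genes were the markers, the 4 genes with most UMIs of each of 27 lists, the called genes and Prdm6. The members, the lists and the naming rule were chosen with earlier results of these data known, and genes named beyond that rule were chosen after their values were seen. Alternatives changed the rule, the depth, the scaling and the UMI minimum. Of these, 7 were added after seeing the data: a UMI minimum set on other Epcam cells, members without endothelial or macrophage UMIs, all other cells as the comparison, the share of cells with 2 otic genes at equal depth, called genes and list sums without their highest cell, and list sums without members with Pax8 and no Pax2. Some genes of the lists are summed but not reported here by name.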

Additional observations from a re-analysis of the deposited data

How the results depend on the processing

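The log2 share ratio of members kept its direction under every alternative that gave a value, from 0.14 to 0.56, and its interval spanned 0 in the main setting. Leaving out members with at least 2 UMIs of blood, heart, endothelial, macrophage or crest genes left 0 WT and 1 KO cells and gave no value. The share of members with Oc90 or Fbxo2 was 70.0% in WT and 33.3% in KO when at least 2 of the 4 genes were required, and 0% in both after thinning, with 4 members each. The 14 genes called between libraries became 8 with at least 3 UMIs, 6 after thinning, 8 without the deepest 10% of cells, 1 in Oc90 or Fbxo2 members alone, 209 with no UMI minimum and 1 at 200 UMIs. The 13 genes called against other Epcam cells became 1 at 200 UMIs, 590 with no minimum, 3 with at least 3 UMIs, 3 after thinning and 25 against all other cells, and with the minimum set on other Epcam cells they were 2 higher and 8 lower. In Oc90 or Fbxo2 members alone the S phase ratio was −0.23 and the G2 and M phase ratio 0.21. Between libraries the direction turned for Cdkn1c (0.52) and Sfrp2 (0.046) with at least 3 UMIs, for Csnk1a1 (0.13) after thinning, and for Csnk1a1 (0.088), Rsl1d1 (−0.082) and Sfrp2 (1.50) in Oc90 or Fbxo2 members alone. Against other Epcam cells Gbx2 in WT turned to −1.87 with at least 3 UMIs. These alternatives keep fewer cells, fewer UMIs or another gene set, and no other cause was tested. No paired analysis was possible because each genotype had 1 library.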

Other observations

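In the Epcam Pax2/8 cells, the 16 pan-placodal genes measured stood at 1029.9 CPM in WT and 1050.4 CPM in KO, log2 ratios over other Epcam cells of 0.44 (0.13 to 0.74) and 0.49 (0.20 to 0.76), and Gata3 was the 1 gene of the list that reached the UMI minimum. Retinoic acid pathway genes, which supply and bind the signal that patterns the otic axis, had 228 UMIs in each library (0.14, −0.06 to 0.34, and −0.18, −0.38 to 0.01), with Crabp2 at 26 and 50 UMIs. A single WT cell held 75 of the 228 WT UMIs, 69 of them of Crabp1, and without the highest cell of each library the WT ratio turned to −0.39 (−0.63 to −0.15) and the KO ratio was −0.21 (−0.42 to −0.01), while the ratio KO over WT turned from −0.17 (−0.44 to 0.10) to 0.33 (0.02 to 0.64). Mesenchyme markers had 24 and 46 UMIs and lay below other Epcam cells (−1.35, −2.01 to −0.77, and −0.65, −1.11 to −0.23). Neuron markers had 20 and 21 UMIs in 6 and 9 cells, 15 of the 20 in 1 WT cell. The PR domain and H4K20 methyltransferase genes had 50 and 70 UMIs, a log2 ratio KO over WT of 0.31 (−0.23 to 0.87).

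Stress and immediate early genes, which respond to handling and dissociation, were lower in members than in other Epcam cells (−0.48, −0.70 to −0.27, in WT and −0.20, −0.39 to −0.01, in KO), and KO over WT was 0.16 (−0.12 to 0.44). Hypoxia and glycolysis genes held 1330.0 and 1348 UMIs and were at a log2 ratio KO over WT of −0.15 (−0.26 to −0.04), near the −0.17 of all other cells.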
